A study of Homo sapiens with 6 samples.

Results

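The genes described here encode integrins, laminins and other proteins through which epithelial cells hold on to the matrix: 45 of the 19871 gene symbols measured. They were chosen by name, with no threshold on a measured value, and comprise integrin subunits, laminin chains, other matrix proteins, other adhesion receptors, adaptors and actin linkers, caveolins, and kinases with other signalling genes. All 45 had a row in the data. The mean of the 3 group sums reached 50 counts for 40 of them, and fold changes are given for those 40 among the 11907 symbols that reached the same line.

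RNA was sequenced from HCT116, an established human colorectal carcinoma cell line, in 3 groups of 2 libraries. The groups were called NC, GAS5 and siYAP, and all were transfected cells of this 1 line. The GAS5 group received a plasmid for GAS5, a long noncoding RNA, and the siYAP group received siRNA against YAP, the transcriptional coactivator of the Hippo pathway, whereas the agent given to NC and the time of harvest are not stated in the sources used here. The labels list all 3 groups under the heading for siRNA. The deposited tables hold 1 mean of 2 libraries per group, so the values of single libraries, their spread and any test between groups were not available, and every difference below is a description. RNA came from whole cultures, so fewer cells with a transcript and less of it per cell cannot be told apart. The question was how each treatment differed from NC, and both comparisons share the same NC values.

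Integrins are receptors made of an alpha and a beta subunit that span the membrane, bind matrix outside the cell and connect to actin inside it. Laminins are trimers of an alpha, a beta and a gamma chain and form the scaffold of the basement membrane under an epithelium. At focal adhesions, talin, paxillin, integrin-linked kinase and their partners collect on the integrin tails, and kinases such as focal adhesion kinase and SRC signal from there to actin and to YAP. YAP in turn acts in the nucleus through TEAD factors, and matrix and adhesion genes have been described among its targets.

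The depth, as the sum of expected counts, was 27206123 for NC, 25521577 for GAS5 and 26298036 for siYAP. YAP1, the gene aimed at by the siRNA, had 3480 counts in NC. Scaled to the depth of NC, GAS5 had 2889 and siYAP 1564, a log2 fold change of -1.15 in siYAP and -0.27 in GAS5. GAS5 RNA itself was not analysed here. Of 8 colon epithelial markers, 6 reached 50 counts in every group, among them EPCAM and the keratins KRT8, KRT18 and KRT19, while VIL1 stood at 0 in NC and KRT20 at 13 counts. Of 12 markers of fibroblasts, endothelium and leukocytes, 2 reached 50 counts (COL1A1 and CD68), between 3 and 5 stood at 0 in each group, and their summed level was 7.03 FPKM in NC, 10.3 in GAS5 and 7.63 in siYAP. All 10 interferon-stimulated genes examined were over 2-fold higher in GAS5 (median log2 fold change 3.35, against 0.27 in siYAP). Of all genes, 0.781% were at least 2-fold higher in GAS5. Several of the 10, such as OAS1 with 21 counts in NC and IFI27 with 10, reached the count minimum only through GAS5. Their number and median therefore follow in part from that minimum. The part of this interferon response in the adhesion values was not tested.

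Sequences of alternative exons are shown first, because adhesion receptors differ by their exons as well as by their level. The first is the alternative exon near the 3′ end of ITGA6, the integrin alpha subunit that pairs with ITGB4 in hemidesmosomes. It lies at chr2:172501772-172501901 on the plus strand (GRCh38, GENCODE release 29). It is 130 bases long, and its coding part up to and including the stop codon, which is in capitals, is printed. Its inclusion gives the shorter of the known cytoplasmic tails, in a protein of 1073 residues (ITGA6-201), and its absence gives one of 1091 residues (ITGA6-202).
ITGA6 exon, chr2:172501772-172501879: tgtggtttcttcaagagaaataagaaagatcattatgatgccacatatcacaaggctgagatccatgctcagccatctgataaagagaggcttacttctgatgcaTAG

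The next 3 are the variable exons that separate the 493-residue form of CD44 (CD44-209) from the standard form of 361 residues (CD44-201). CD44 is a receptor for hyaluronan, and its variable exons lengthen the part outside the cell. They are on the plus strand of the same build, are 102, 90 and 204 bases long, and are entirely coding.
CD44 exon, chr11:35208105-35208206: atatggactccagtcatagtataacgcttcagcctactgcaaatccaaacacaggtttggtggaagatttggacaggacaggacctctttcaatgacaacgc
CD44 exon, chr11:35209965-35210054: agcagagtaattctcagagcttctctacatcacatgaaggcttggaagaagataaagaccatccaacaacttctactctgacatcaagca
CD44 exon, chr11:35211246-35211449: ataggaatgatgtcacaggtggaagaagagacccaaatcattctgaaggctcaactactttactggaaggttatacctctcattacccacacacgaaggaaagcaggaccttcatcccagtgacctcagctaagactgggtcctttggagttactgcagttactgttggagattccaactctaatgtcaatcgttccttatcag

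Promoter sequence was examined for the letters that TEAD factors (GGAATG) and AP-1 factors (TGANTCA, N being any base) are known to bind, on both strands of the 250 bases before the RefSeq start (GRCh38.p14). No match of one motif overlapped a match of the other. Of the 45 adhesion genes, 38 matched a promoter. AGRN, ITGA3, ITGB3, ITGB4, PARVA, PTK2 and SRC did not match. The TEAD letters were present in 3 of 38 (7.89%), against 11.9% of all 27305 promoters and 8.96% of the 9226 promoters of genes above the count minimum. The AP-1 letters were present in 3 of 38 (7.89%), against 6.60% of all promoters and 3.46% of those above the minimum. Each match is printed with up to 11 bases on either side and the motif in capitals. They show only where those letters lie. The matches of ITGA5, ITGB1, ROCK2 and LAMA3 fall inside the gene as annotated in GENCODE release 29, whose first base lies further upstream.
ITGA5 TEAD letters, chr12:54419332-54419359, minus strand: ccagggacccaGGAATGcccccccgcca
ITGB1 TEAD letters, chr10:32958396-32958423, minus strand: gcggcgggagaGGAATGcgtttccggag
ROCK2 TEAD letters, chr2:11345605-11345632, minus strand: acaactgggccCATTCCcaggttttggt
LAMA3 AP-1 letters, chr18:23872884-23872912, plus strand: ctggcacaggcTGACTCAtgtgtgaagtt
LAMA3 AP-1 letters, chr18:23872940-23872968, plus strand: ccttcctcaccTGAGTCAggcaggcccgg
BCAR1 AP-1 letters, chr16:75268054-75268082, minus strand: ataggacggagTGAGTCAtcctgggatca
ACTN4 AP-1 letters, chr19:38647399-38647418, plus strand: taTGAATCAttcatgatctg

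The promoter of ITGA2, the collagen receptor subunit that stood past the 1.5-fold line in both comparisons, held neither motif. The part of its window that lies before the first base of the annotated gene is printed, 224 bases at 77.2% G and C.
ITGA2 promoter, chr5:52989102-52989325, plus strand: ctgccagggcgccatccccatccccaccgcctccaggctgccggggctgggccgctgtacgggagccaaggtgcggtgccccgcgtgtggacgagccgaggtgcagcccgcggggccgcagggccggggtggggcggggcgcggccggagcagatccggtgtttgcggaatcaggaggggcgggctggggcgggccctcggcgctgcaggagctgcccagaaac

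Levels were compared between genes only per length, as summed FPKM (fragments per kilobase of transcript, scaled to depth). In NC they ran from 0.012 FPKM for COL4A1, a chain of type IV collagen, to 247 for ACTN4, which crosslinks actin. ACTN4 was followed by CAV1 at 234, CD44 at 232, ITGB1 at 164, ITGB4 at 138 and ITGA3 at 137. Whether neighbours in this order differ beyond the spread of libraries could not be judged. Integrin expression was concentrated in a few subunits. The 7 alpha subunits summed to 239 FPKM in NC, of which ITGA3 made up most, and the 6 beta subunits to 334, mostly from ITGB1 and ITGB4. The partner subunits for vitronectin and fibronectin, ITGAV and ITGA5, stood at 19.7 and 31.7 FPKM. ITGB3 and ITGB6, which can also pair with ITGAV, had 11 and 5.50 counts in NC and got no fold change. COL4A1, COL4A2 and COL17A1 were below the line too, with 2, 1.5 and 40.5 counts in NC.

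**Figure D1:**
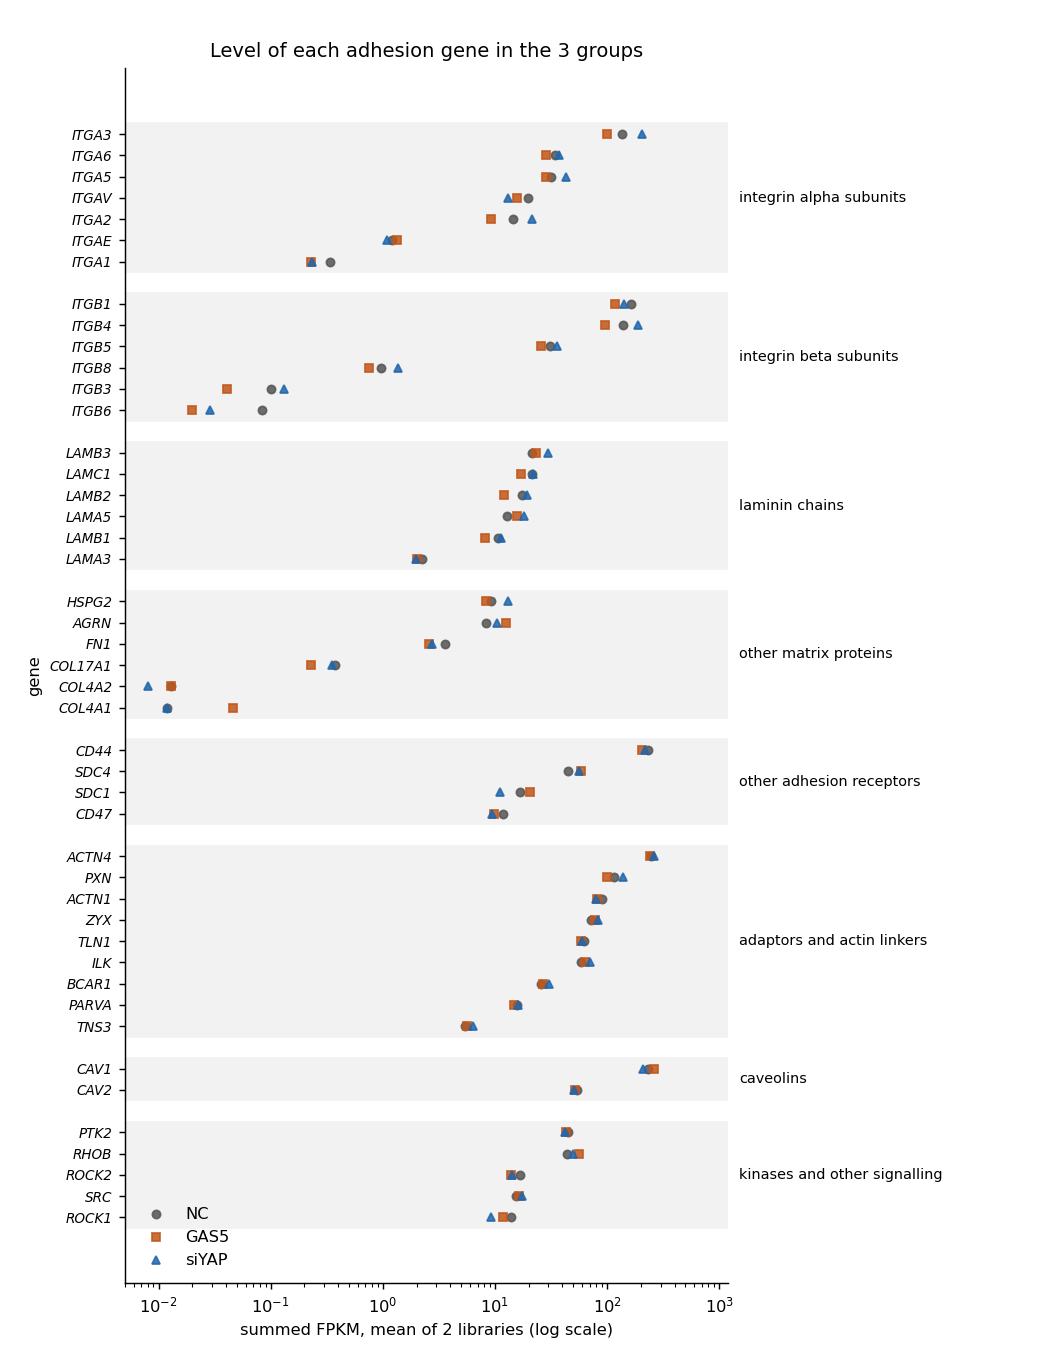
Level of each of the 45 adhesion genes as summed FPKM on a log axis, grouped by role and ordered by NC, with 1 point per group (the authors' mean of 2 libraries, no error available). ITGA3, ITGB1, ITGB4, CD44, CAV1, PXN and ACTN4 were near or above 100 FPKM in every group, and ITGB3, ITGB6, COL4A1, COL4A2 and COL17A1 stayed below 1.

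In GAS5 the adhesion genes stood slightly below NC as a group, and the integrins were the lowest of the roles. The median log2 fold change of the 40 genes was -0.14, against -0.01 over all 11907 genes, and it was -0.07 relative to classes of transcript length. AGRN was the single gene at least 1.5-fold higher (1 of 40, with 2.38% of all genes past that line) and ITGA2 the single gene at least 1.5-fold lower (1 of 40, with 2.07% of all genes). At a line of 1.25-fold, which was chosen after the values were seen, 3 of 40 were higher (9.79% of all genes) and 8 of 40 lower (10.3% of all genes). None reached 2-fold.

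In siYAP more of the adhesion genes stood above NC than below it. The median log2 fold change was 0.17, against 0.02 over all genes. At least 1.5-fold higher were ITGA3, ITGB8 and ITGA2 (3 of 40, with 3.46% of all genes past that line), and none was at least 1.5-fold lower (3.75% of all genes). At 1.25-fold, 13 of 40 were higher (16.1% of all genes) and 4 of 40 lower (13.4% of all genes). None reached 2-fold. The split depended on the scaling: under total counts no gene was 1.5-fold higher and 2 were lower (SDC1 and ITGAV), and at 1.25-fold 11 were higher and 6 lower. The median of all genes under total counts was -0.04. The ratio of summed FPKM likewise gave 0 higher and 2 lower at 1.5-fold, and 10 and 6 at 1.25-fold. Shares of all genes past these lines are not given here for total counts or FPKM ratios. Whether the change of split is particular to the adhesion genes therefore cannot be read from these counts.

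**Figure D2:**
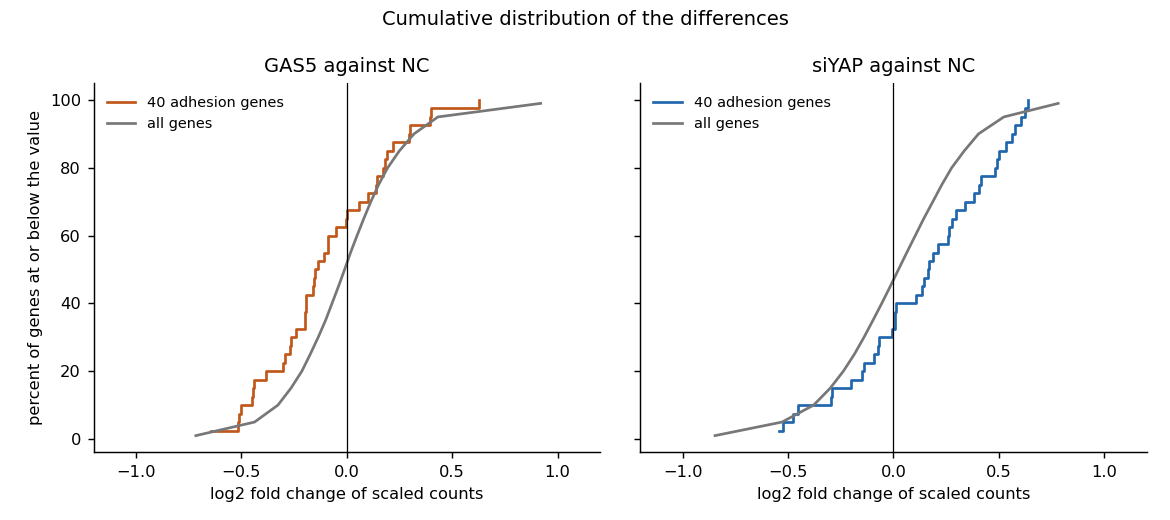
Cumulative percent of genes at or below each log2 fold change, for the 40 adhesion genes (coloured steps) and all 11907 genes (grey), in GAS5 against NC (left) and siYAP against NC (right). The adhesion genes lie to the left of all genes over most of the range in GAS5, with a median of -0.14, and to the right in siYAP, with a median of 0.17.

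The siYAP differences went with base composition in all genes. Genes were sorted into 5 equal classes by the G and C content of their most abundant transcript with an Ensembl identifier. Transcripts assembled by the authors were left out of that choice. All genes had medians of -0.17, -0.12, 0.01, 0.15 and 0.27 on the log2 scale from the lowest class to the highest. The adhesion genes had medians of -0.14, 0.00, 0.11, 0.22 and 0.48 in the same classes, and 21 of the 40 fell in the upper pair of classes. Taken relative to the median of their class, 5 of 40 were at least 1.25-fold higher (9.32% of all genes with a value) and 2 lower (11.4%), and their median was 0.11. ITGA2, ITGB8, SDC4, ITGA3 and ITGA5 were the 5, and SDC1 and ITGAV the 2. In GAS5 the class medians ran only from -0.07 to 0.06, but medians over 5 classes of transcript length went from 0.09 for the shortest to -0.12 for the longest, and 17 of the 40 adhesion genes were in the longest class. Relative to its length class ITGA2 was at -0.52 in GAS5 and so inside the 1.5-fold line, and AGRN was at 0.75. The part of base composition or length in these values was not tested.

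**Figure D3:**
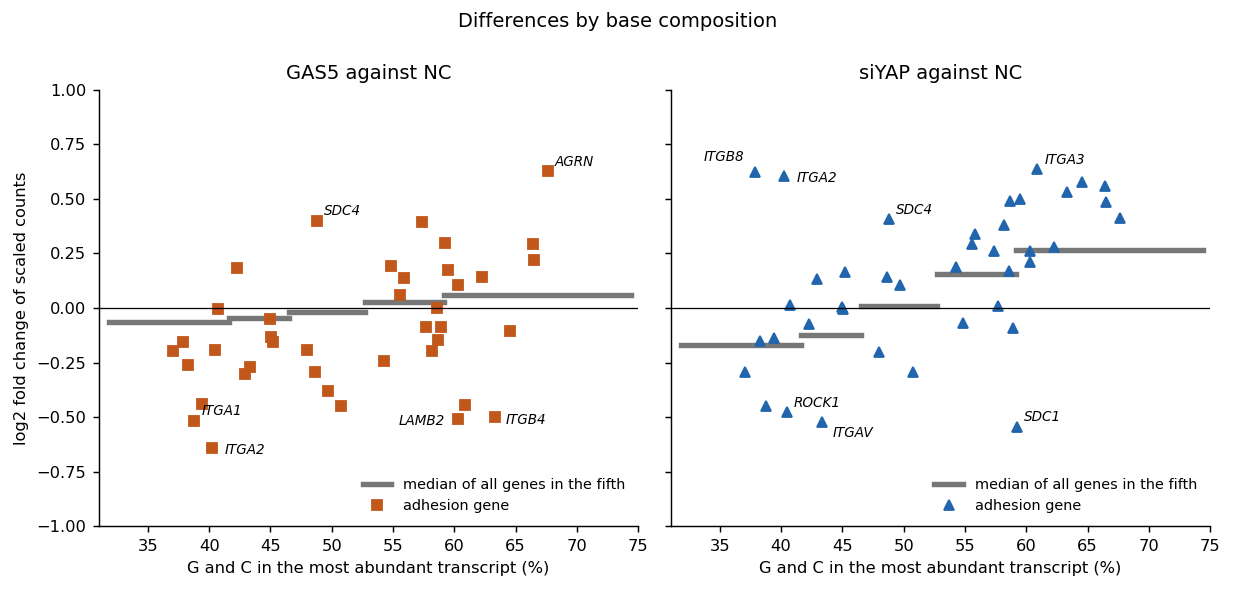
Log2 fold change against the G and C content of the most abundant Ensembl transcript of each of the 40 adhesion genes, with grey bars for the median of all genes in each of 5 classes of equal size. In siYAP the bars run from -0.17 to 0.27, with ITGA2 and ITGB8 far above theirs and SDC1 far below, whereas in GAS5 the bars stay between -0.07 and 0.06.

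Among the integrin alpha subunits, ITGA2 and ITGA3 stood on opposite sides of NC in the treatments. ITGA2, which binds collagen and laminin with ITGB1, had 3185 counts in NC and, after scaling, 2039 with GAS5 and 4842 with siYAP. This was 1.56-fold lower in GAS5 (log2 fold change -0.64, 95% counting interval -0.70 to -0.59) and 1.52-fold higher in siYAP (0.60, 0.56 to 0.65). ITGA3, a laminin receptor subunit and the alpha subunit with the highest level in these cells, had 18513 counts in NC, 13589 with GAS5 and 28774 with siYAP, 1.36-fold lower and 1.55-fold higher. Its levels were 137, 99.9 and 204 FPKM. Relative to their classes of G and C content, ITGA3 was at 0.37 and ITGA2 at 0.77 in siYAP. The counting intervals, here and below, cover counting error on both means only and not the spread between libraries.

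ITGA5 and ITGA6 had the same order with smaller differences. ITGA5, the fibronectin receptor subunit, had 3913 counts in NC, 3530 with GAS5 and 5504 with siYAP, with log2 fold changes of -0.15 and 0.49. ITGA6 had 5263, 4272 and 5777 counts, with -0.30 and 0.13. ITGAV, the subunit shared by receptors of vitronectin and latent TGF-beta, had 2395, 1986 and 1666, with -0.27 in GAS5 and -0.52 in siYAP, so it was below NC in both. ITGAE, known from lymphocytes within epithelium, and ITGA1 were low, with no more than 125 counts in NC. The intervals of ITGAE included 0 in both comparisons, and ITGA1, a collagen receptor subunit represented by 1 transcript, was at -0.52 (-0.85 to -0.20) and -0.45 (-0.79 to -0.14). Doubled sums were within 0.1 of a whole number for 44 of the 45 genes, ITGA1 being the exception. Over the 7 alpha subunits the median was -0.30 in GAS5 and 0.13 in siYAP.

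All 4 beta subunits with a fold change stood below NC in GAS5, with a median of -0.34. ITGB4, the hemidesmosome subunit that binds laminin with ITGA6, had 21353 counts in NC, 15102 with GAS5 and 30894 with siYAP. It was 1.41-fold lower in GAS5 (-0.50, -0.52 to -0.48) and 1.45-fold higher in siYAP (0.53, 0.51 to 0.55), the same order as ITGA3. Relative to its class of G and C content ITGB4 was at 0.27 in siYAP, inside the 1.25-fold line. ITGB1, the common partner of most alpha subunits, had 15542, 11472 and 14129 counts, with -0.44 in GAS5 and -0.14 in siYAP, where it was 0.03 relative to its class of G and C content. ITGB5, a partner of ITGAV, was at -0.24 and 0.19. ITGB8, another partner of ITGAV, was rare, with 151 counts in NC, 135 with GAS5 and 233 with siYAP. It was 1.54-fold higher in siYAP with a wide interval (0.62, 0.41 to 0.85), and its interval in GAS5 included 0 (-0.16, -0.41 to 0.09). That GAS5 value included an assembled transcript, and with Ensembl transcripts alone ITGB8 was at -1.32 in GAS5, past the 1.5-fold line, and at 0.82 in siYAP.

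**Figure D4:**
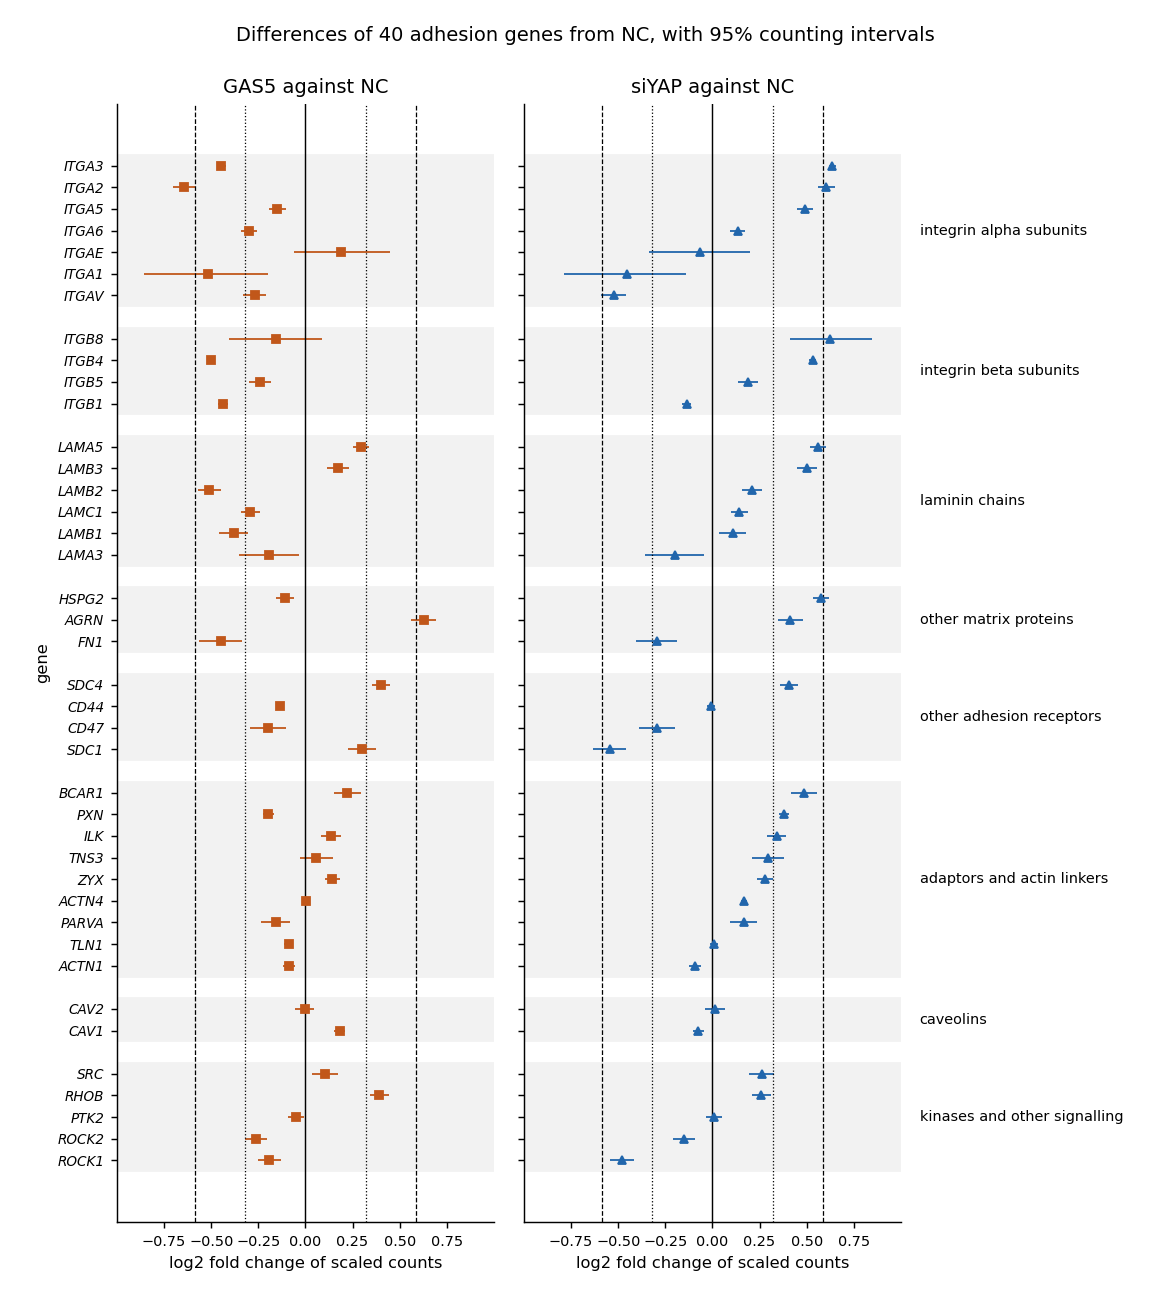
Log2 fold change of scaled counts for the 40 adhesion genes above the count minimum, in GAS5 against NC (left) and siYAP against NC (right), with 95% counting intervals as bars, dashed lines at 1.5-fold and dotted lines at 1.25-fold. In GAS5 only ITGA2 lies past the lower dashed line and AGRN past the upper one, and in siYAP ITGA3, ITGB8 and ITGA2 lie past the upper one.

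The laminin chains did not stand on one side of NC together. LAMA5, the alpha chain of the laminin under most adult epithelia, had 4088 counts in NC, 5017 with GAS5 and 6032 with siYAP, above NC in both (0.30 and 0.56). LAMB3, the beta chain of the laminin that anchors hemidesmosomes, had 2391, 2697 and 3383 (0.17 and 0.50). The partner chains of the more general laminins were below NC in GAS5 and close to it in siYAP. LAMB2 had 2751, 1931 and 3180 counts (-0.51 and 0.21), LAMB1 1615, 1240 and 1740 (-0.38 and 0.11), and LAMC1, the gamma chain common to most laminins, 3624, 2960 and 4003 (-0.29 and 0.14). The direction of LAMB2 in siYAP depended on the transcripts summed, being -0.09 with Ensembl transcripts alone and -0.06 relative to its class of G and C content. On the latter measure LAMA5 was at 0.29 and LAMB3 at 0.23 in siYAP. LAMA3, the alpha chain that assembles with LAMB3, was the rarest, with 366, 320 and 318 counts (-0.19 and -0.20). Per length, the 6 chains together stood at 85.8 FPKM in NC, 78.7 with GAS5 and 102 with siYAP.

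In siYAP the basement membrane proteoglycans AGRN and HSPG2 stood above NC, whereas fibronectin stood below it. AGRN, which encodes agrin, had 1569 counts in NC, 2423 with GAS5 and 2089 with siYAP. It was 1.54-fold higher in GAS5 (0.63, 0.56 to 0.69) and 1.33-fold higher in siYAP (0.41, 0.35 to 0.48). Relative to its class of G and C content AGRN was at 0.15 in siYAP. HSPG2, which encodes perlecan, had 3641, 3380 and 5424 counts, close to NC in GAS5 (-0.11) and 1.49-fold higher in siYAP (0.58, 0.53 to 0.62). Relative to its own class of G and C content HSPG2 was at 0.31 in siYAP. FN1, fibronectin, had 793, 580 and 645 counts, below NC in both (-0.45 and -0.30), although its single most abundant transcript gave 0.34 in GAS5.

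The syndecans, which bind matrix through heparan sulfate chains, differed from each other in siYAP. SDC4, the syndecan of focal adhesions, had 3246 counts in NC, 4284 with GAS5 and 4300 with siYAP, 1.32-fold higher in both. SDC1, the main epithelial syndecan, had 1422, 1750 and 974 counts, 1.23-fold higher in GAS5 (0.30, 0.23 to 0.37) and 1.46-fold lower in siYAP (-0.54, -0.63 to -0.46). CD44 had 16386, 14925 and 16312 counts, with -0.13 in GAS5 and -0.01 in siYAP. CD47, an integrin-associated receptor for thrombospondin, had 1028, 896 and 839 counts, with -0.20 and -0.29.

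The 9 adaptors and actin linkers lay closer to NC in GAS5 than the integrins did, with all between -0.20 and 0.22 and a median of 0.00. In siYAP 8 of the 9 were above NC, with a median of 0.28, as were 6307 of all 11907 genes. TLN1 was one of the 8 only at 0.01 and was below 0 under 5 of the alternatives. Relative to their classes of G and C content the 9 lay between -0.25 (ACTN1) and 0.29 (PARVA) in siYAP. ZYX and ACTN4 were both at 0.01 and TLN1 at -0.15 on that measure. BCAR1, a docking protein phosphorylated by SRC, had 1521 counts in NC, 1772 with GAS5 and 2127 with siYAP (0.22 and 0.48). PXN, paxillin, had 11267, 9830 and 14661 (-0.20 and 0.38), and ILK, integrin-linked kinase, had 2809, 3090 and 3558 (0.14 and 0.34). Zyxin (ZYX), which gathers at tensed actin, was at 0.14 and 0.28, tensin 3 (TNS3) at 0.06 and 0.29, and parvin alpha (PARVA), a partner of ILK, at -0.16 and 0.17. Talin 1 (TLN1), which activates integrins, had 15385, 14479 and 15470 counts (-0.09 and 0.01), with -0.34 in siYAP from Ensembl transcripts alone. The alpha actinins had 8095, 7612 and 7600 counts for ACTN1 (-0.09 in both) and 27059, 27069 and 30392 for ACTN4 (0.00 and 0.17). An assembled transcript held 58.6% of the ACTN1 counts in NC. Under the alternatives ACTN1 reached up to 0.08 in GAS5 and 0.01 in siYAP, so its direction was not stable.

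The caveolins, which coat membrane invaginations that flatten under tension, stayed near NC. CAV1 had 10216, 11588 and 9700 counts (0.18 and -0.07), and CAV2 had 3226, 3216 and 3257 (0.00 and 0.01). Of the kinases, PTK2, focal adhesion kinase, had 4595, 4436 and 4615 counts (-0.05 and 0.01), and SRC had 1704, 1830 and 2042 (0.10 and 0.26). SRC was at -0.005 in siYAP relative to its class of G and C content. The other signalling genes were spread wider. RHOB, a small GTPase induced by stress, had 2884, 3787 and 3454 counts (0.39 and 0.26). ROCK1, a kinase that drives contraction, had 2488, 2179 and 1786 counts (-0.19 and -0.48), but with Ensembl transcripts alone it was at 0.02 in GAS5 and -0.02 in siYAP, where siYAP was no longer past 1.25-fold. ROCK2, its close relative, had 2570, 2142 and 2317 (-0.26 and -0.15), and its siYAP value was 0.02 relative to its class of G and C content.

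The 1.5-fold line is at 0.585 on the log2 scale. In GAS5 the genes nearest to it were AGRN at 0.63 and ITGA2 at -0.64 past it, and ITGA1 at -0.52, LAMB2 at -0.51 and ITGB4 at -0.50 short of it. In siYAP ITGA2 at 0.60, ITGB8 at 0.62 and ITGA3 at 0.64 were past it, and HSPG2 at 0.575, LAMA5 at 0.56 and ITGB4 at 0.53 were just short of it, with SDC1 at -0.54 and ITGAV at -0.52 nearest on the lower side. The distance between HSPG2 and ITGA2 was smaller than their counting intervals.

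Transcripts of 1 gene could shift while its sum did not. Counts of single transcripts come from reads split by the authors' estimation, so the shares below are descriptions, and their exact binomial intervals cover counting error and not that split. Transcripts with the ITGA6 exon printed above took 78.1% of its counts in NC (95% interval 77.4 to 78.9), 71.0% in GAS5 (69.97 to 71.98) and 74.5% in siYAP (73.6 to 75.3). ITGA6-201 had 4113 counts in NC, 2812 with GAS5 and 3972 with siYAP before scaling, and ITGA6-202 had 1101, 961 and 1253. Transcripts with the 102-base CD44 exon took 62.3%, 62.1% and 59.7%, and those with the 204-base exon 58.7%, 58.4% and 57.0%, so that the variable forms held most of the CD44 counts in every group. CD44-201, the standard form, held 36.7% in NC. Among the variable forms, CD44-208 held 10.8% in NC, 14.8% in GAS5 and 10.4% in siYAP, and CD44-209 held 23.7%, 19.5% and 22.8%.

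Other genes had transcripts listed at 0 in 1 group or with larger shifts. FN1-202 had 176 counts before scaling in NC (22.2% of FN1), 0 in GAS5 and 91.4 in siYAP (15.3%). The exact interval of the 0 in GAS5 reached 0.343%, for counting error only. FN1-204 held 24.0% in NC and 41.7% in GAS5. ITGB8-201 held 51.4% of ITGB8 in NC, 15.6% in GAS5 and 67.7% in siYAP, and a transcript assembled by the authors without an Ensembl identifier held 12.9%, 61.9% and 0%. The exact interval of that 0 in siYAP reached 0.854%. ACTN1-201 held 8.12% of ACTN1 in NC, 16.0% in GAS5 and 15.9% in siYAP, although the sums were within 1.07-fold. For TLN1 the assembled transcript held 51.5%, 47.6% and 62.0%, and for LAMB2 59.8%, 54.3% and 67.3%.

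**Figure D5:**
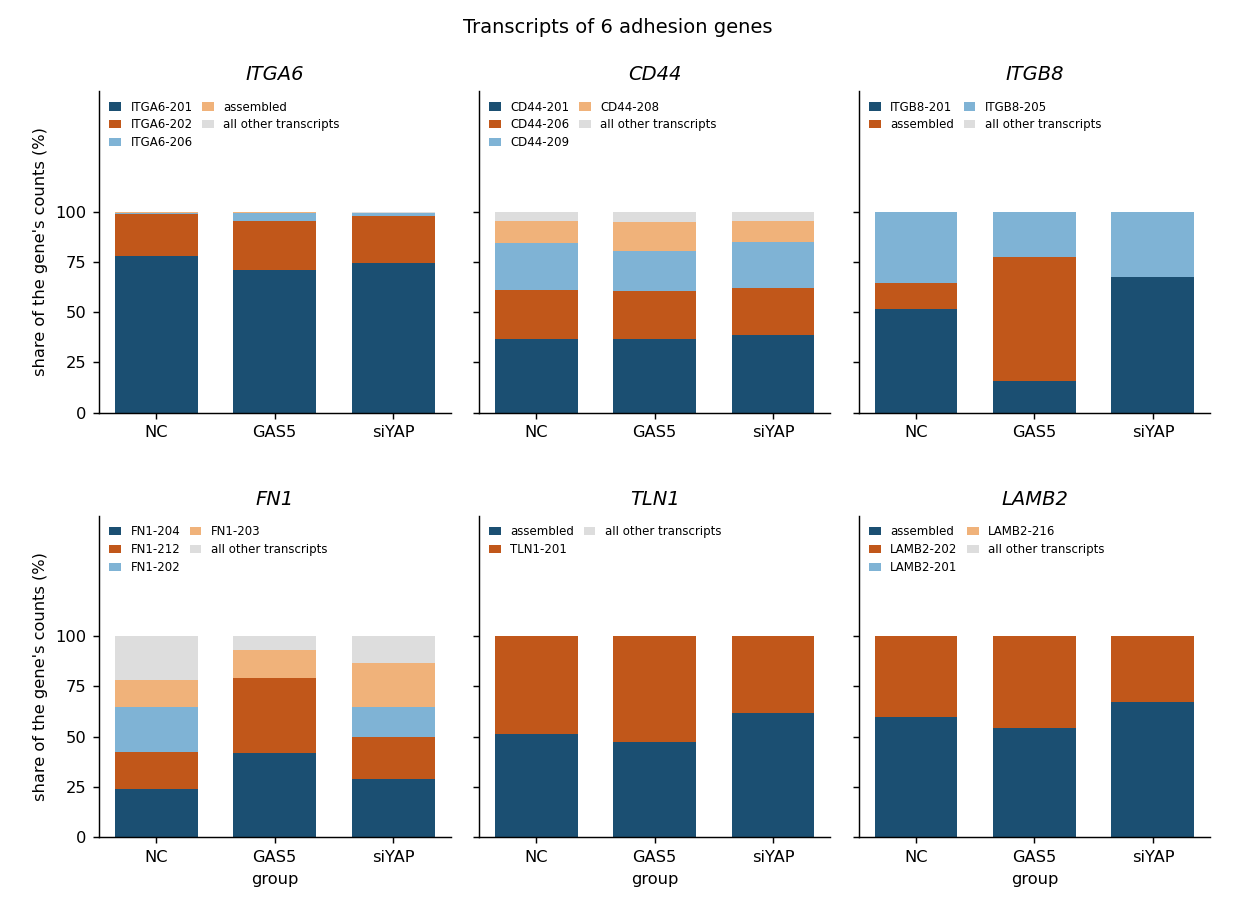
Share of each gene's counts held by its most used transcripts (stacked bars, up to 4 named per gene, the rest in grey) in NC, GAS5 and siYAP, for ITGA6, CD44, ITGB8, FN1, TLN1 and LAMB2. CD44-201 holds 36.7% of CD44 in both NC and GAS5, and the assembled transcript of ITGB8 holds 61.9% in GAS5 and 0% in siYAP.

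Genes of the same pathway that are not among the 45 were listed as well. Of 13 other integrin subunits, 10 were below the count minimum, ITGA4 and ITGB2 among them at 0 in NC. The remaining 3 had medians of -0.26 in GAS5 and 0.29 in siYAP. Of 22 other basement membrane genes, 14 were above the minimum, with medians of -0.18 and 0.20. In GAS5 1 of the 14 was at least 1.5-fold higher and 2 lower (2.38% and 2.07% of all genes), and in siYAP 1 was higher and 0 lower (3.46% and 3.75% of all genes). COL7A1, the anchoring fibril collagen, was higher in both (0.83 and 1.5, from 56.5 counts in NC), and the type IV collagens COL4A3 (-0.78) and COL4A4 (-0.63) were lower in GAS5, with -0.51 and -0.31 in siYAP. Of 50 other focal adhesion genes, 49 had a row and 44 were above the minimum, with medians of -0.06 and 0.11. In GAS5 1 of the 44 was at least 1.5-fold lower and 0 higher (2.07% and 2.38% of all genes). The 1 was FBLIM1, a filamin-binding adaptor, at -0.80. In siYAP 1 of the 44 was higher and 0 lower (3.46% and 3.75% of all genes), the 1 being RHOC, a small GTPase, at 0.72.

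The 7 YAP-TEAD target genes listed did not stand below NC in siYAP. The 6 above the minimum had a median of 0.41 in siYAP and 0.44 in GAS5. CYR61, a matrix-associated ligand of integrins, had 540 counts in NC, 1141 with GAS5 and 672 with siYAP (1.08 and 0.32), and CTGF, from the same family, had 79.5, 132 and 91.0 (0.71 and 0.19). The counting interval of CTGF in siYAP included 0 (-0.13 to 0.52). AXL, a receptor tyrosine kinase, was at 0.04 in GAS5 and 0.62 in siYAP.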

How the data were processed

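Total RNA of 6 libraries (3 groups of 2) was sequenced after strand-marked library preparation. Per the labels, TopHat2 version 2.1.1 was used, and the genome build, the counter and its use of strand are not given in the sources used here. The authors deposited 2 tables with 92866 transcripts each, of which 12002 were assembled without an Ensembl identifier, and with expected counts (estimated counts, the mean of 2 libraries per group) and FPKM. The third decimal of the counts was 0 or 5 throughout, and an FPKM of 0.001 stood for 0. The fold changes, p-values and FDR in the deposited tables were not used. Because library columns were lacking, the edgeR quasi-likelihood test planned could not be run.

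Counts and FPKM were summed by upper-case symbol from the siYAP table (339 transcripts had none). Each pair of columns was scaled by TMM (edgeR 4.0.16) over transcripts kept by filterByExpr, with factors of 1.08 for GAS5 and 1.08 for siYAP. A prior count of 2 was added before taking log2 fold changes, over symbols with a mean of at least 50. Counting intervals are 95% Clopper-Pearson intervals on doubled means (scipy 1.17.1). The steps were tested on simulated data. G and C content and length came from GENCODE release 29 for all 40 genes, for the most abundant Ensembl transcript. The alternative with the single most abundant transcript could use an assembled one. Values are written out for genes past 1.5-fold, the leading genes of each role and those near the line, and the other genes are given too. The genes, lists and lines were chosen with earlier results of these data known. Alternatives were other scalings (DESeq2 1.42.0 size factors, total counts, TMM over gene sums, FPKM ratios), a prior count of 0.5, other transcript sums, other count minimums and, added after the values were seen, differences relative to classes of G and C content or length.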

Additional observations from a re-analysis of the deposited data

How the results depend on the processing

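No paired analysis was possible because single libraries have no column of their own, and for that reason no replicate was left out and no DESeq2 or edgeR test was run. The median of the adhesion genes kept its sign under every alternative run: in GAS5 (-0.14) it was -0.07 relative to the class of length and between -0.12 and -0.16 otherwise, and in siYAP (0.17) it was 0.10 with total counts, 0.10 as a ratio of summed FPKM, 0.24 with the single most abundant transcript and 0.11 relative to the class of G and C content. The genes past 1.5-fold in GAS5 (2) became 4 with the single most abundant transcript, 5 with no minimum, 0 relative to the class of G and C content and 1 relative to the class of length. Those in siYAP (3) became 5 with the single most abundant transcript and 6 relative to the class of length, and with total counts or FPKM ratios the 3 higher became 2 lower. Relative to the class of G and C content, 2 in siYAP were higher (ITGA2 and ITGB8) and 1 was lower (SDC1), and ITGA3 was no longer past the line. At 1.25-fold in siYAP, 17 became 7 relative to the class of G and C content. Of all genes, 529 in GAS5 became 939 with Ensembl transcripts only, 1240 with the single most abundant transcript, 1011 with a mean of at least 10 and 2423 with no minimum. For siYAP, 859 became 1289, 1587, 1324 and 2506 in the same order, and 528 relative to the class of G and C content. The sign held under all alternatives for 32 of 40 genes in GAS5 and 29 of 40 in siYAP. The causes were not tested. Low counts limit ITGB8, ITGAE and ITGA1, whose intervals are widest, and the spread between libraries is unknown for every value.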
